A study of Prunus persica with 8 samples.

Results

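A set of 42 peach genes lost transcript at every sampled step of winter chilling in flower buds, and their median level went from 21.2 FPKM at the start to 2.12 FPKM at the end. FPKM is a count of sequenced fragments corrected for the length of the gene and the size of the library. The 42 genes were chosen on these same values, out of 22285 features in the table. A gene entered when its highest stage value was at least 5 FPKM, when log2(FPKM + 1) dropped by 0.3 or more at each of the 3 steps between stages, and when the whole drop was 1.5 or more. Only PRUPE_ gene models were eligible, and the gene numbers from 1G531100 to 1G531700 were set aside. Of the 12883 eligible genes with at least 5 FPKM, the 42 made up 0.326%. Because the falls selected the genes, the falls themselves are given as a description, without a test.

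The buds came from nectarine trees of the cultivar Fantasia, 10 years old, on an experimental farm, and by the study's methods the bud scales were removed before the tissue was frozen. The groups were defined by the chilling units (CU, a running score of the cold received) that the buds had accumulated, which were 0CU, 200CU, 475CU or 770CU, with 2 RNA libraries named for each stage. All groups share the cultivar, and the labels give no treatment. The study's methods describe a replicate as buds from a group of several plants at 0CU, 475CU and 770CU, and do not list 200CU. Each stage was collected on 1 day, at 0, 18, 35 and 63 days after the first collection, so chilling, calendar date and collection day cannot be told apart.

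Flower buds of temperate fruit trees stop growing in autumn and enter endodormancy, a state in which the bud does not resume growth even in warmth until it has passed through a long period of cold. The amount of cold needed is the chilling requirement of the cultivar. Genes that are abundant in dormant buds and decline as cold accumulates are a classical class of dormancy-associated transcripts, of which the DORMANCY-ASSOCIATED MADS-BOX transcription factors of peach are the best known. The identifiers of the 42 genes could be paired with no name or function in the sources used here, so they are described by their identifiers, levels, lengths and neighbours. No tissue marker could be looked up by name either, so the buds were not checked against markers.

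The table gives 1 FPKM value per stage, which proved to be the mean of 2 libraries. The values of both libraries could be worked back from these means for 21712 features (97.4%) and for 40 of the 42 genes, the exceptions being PRUPE_8G030800 and PRUPE_6G002200. Since no replicate number is attached to these values, they are called the larger and the smaller library of a stage by library size, which ranged from 18051083 to 25374451 fragments. The summed FPKM of all features differed between stages, from 763437 at 0CU to 598455 at 770CU. Most of this difference lay in ENSRNA features, which are annotated non-coding RNAs. Without them the sums were 438825 FPKM at 0CU and 427016 FPKM at 770CU. Scaling the stages to the same sum of all features moved the median of all genes between 0CU and 770CU by 0.31 on the log2 scale. Leaving ENSRNA features out of the sum made this shift 0.02, and the values below are unscaled. All 42 genes kept a drop at every step after scaling to the sum of all features and after the other 3 scalings tried.

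From the starting median of 21.2 FPKM, the 42 genes passed through medians of 9.20 FPKM after 200CU and 6.05 FPKM after 475CU to reach 2.12 FPKM. Their summed level was 6187 FPKM to begin with, 3363 FPKM after 200CU, 2513 FPKM after 475CU and 1399 FPKM in the last buds. This sum had to fall at every interval, since the rule required a drop of each gene at each step. PRUPE_8G030800 and PRUPE_6G002200, whose library values were not recovered, supplied most of the sum at every stage. In these whole-bud samples fewer cells of a type and less RNA per cell cannot be told apart. As a share of the summed FPKM of PRUPE_ and XLOC_ features, the set went from 1.41% of the total at 0CU to 0.328% at 770CU. The median fall from 0CU to 770CU was -2.59 on the log2(FPKM + 1) scale, with quartiles of -3.14 and -1.995 and a range from -7.66 to -1.52. Over the 12883 genes the same median was -0.01, so the members dropped from a background that was centred near no change. In plain FPKM, 16 of the 42 genes ended more than 10-fold lower than they began and 4 ended less than 4-fold lower. At the end of the series 12 genes stood under 1 FPKM and 21 under 2 FPKM, whereas at 0CU 7 genes exceeded 100 FPKM and 19 were under 20 FPKM.

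**Figure D1:**
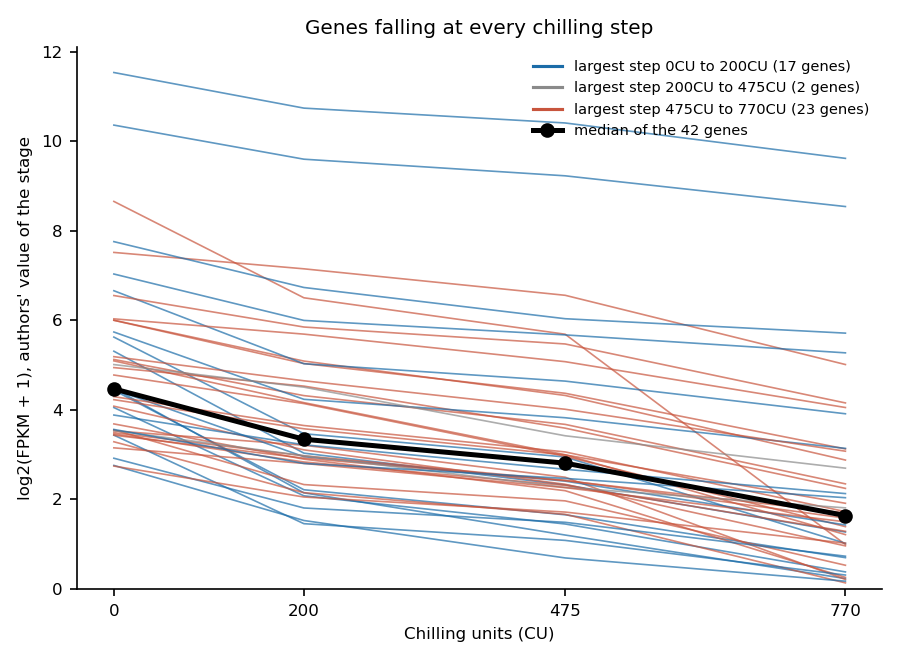
Level of each of the 42 genes as log2(FPKM + 1) of the stage value (vertical axis) against chilling units (horizontal axis, 0, 200, 475 and 770CU). Each thin line is a gene, coloured by the step that held its largest fall, and the black line is the median of the 42, which goes from 21.2 FPKM at 0CU to 2.12 FPKM at 770CU; every line goes down at every step because the genes were chosen that way.

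PRUPE_8G098600 had the largest fall of the set. Its 0CU libraries held 297 and 507 FPKM, in the order larger and smaller, and its 200CU libraries held 124 and 55.4 FPKM. The 475CU libraries held 61.3 and 39.9 FPKM, and the 770CU libraries held 1.07 and 0.920 FPKM. The gene thus passed from one of the highest levels of the set to a trace, with 31 and 23 fragments left in the 770CU libraries against 7146 and 10711 at 0CU. Its stage value was 405-fold lower at 770CU, which left 0.247% of the first level. The last step alone carried 61.3% of the log2 fall, and that step of -4.69 was the largest single step among the 42 genes. The 200CU and 475CU libraries of this gene overlapped, since the larger 475CU library was above the smaller 200CU library.

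PRUPE_1G237100 had the largest first step, of -2.33. Its libraries held 18.9 and 23.8 FPKM at 0CU, 2.85 and 4.01 after 200CU, 1.53 and 1.09 after 475CU, and 0.063 and 0.292 by 770CU. Both libraries of each stage were below both of the stage before. Only 10 fragments remained at 770CU, and the stage value was 120.5-fold lower than at 0CU, with a 95% exact Poisson interval from 65.5 to 251 that covers counting error of the 770CU fragments only.

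PRUPE_4G200000 and PRUPE_3G131500 fell more at each successive step. For PRUPE_4G200000 the libraries held 29.6 and 36.7 FPKM at 0CU, 20.5 and 13.3 after 200CU, 8.76 and 5.22 after 475CU, and 1.46 and 1.18 by 770CU. Its steps were -0.93, -1.16 and -1.78, and no stage overlapped the next. PRUPE_3G131500 had the largest middle step of the set, of -1.18, between steps of -0.64 and -1.57. Its libraries held 21.2 and 31.7 FPKM at 0CU, 14.8 and 18.4 after 200CU, 10.3 and 3.34 after 475CU, and 2.30 and 0.954 by 770CU. The 475CU libraries stood apart by a wide margin, yet both were under both 200CU libraries.

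PRUPE_5G090300 had the latest fall of the set. Its libraries held 9.21 and 11.9 FPKM at 0CU, 9.94 and 6.58 after 200CU, 4.79 and 4.50 after 475CU, and 0.148 and 0.172 by 770CU. The first step carried 9.69% of the fall and the last step 68.8%, the most uneven division in that direction among the 42 genes. The 0CU and 200CU libraries overlapped, so the first step was within the spread of the libraries. At 770CU the gene had 4 fragments, and its level was 66.0-fold lower than at 0CU with a counting interval from 25.8 to 242.

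**Figure D2:**
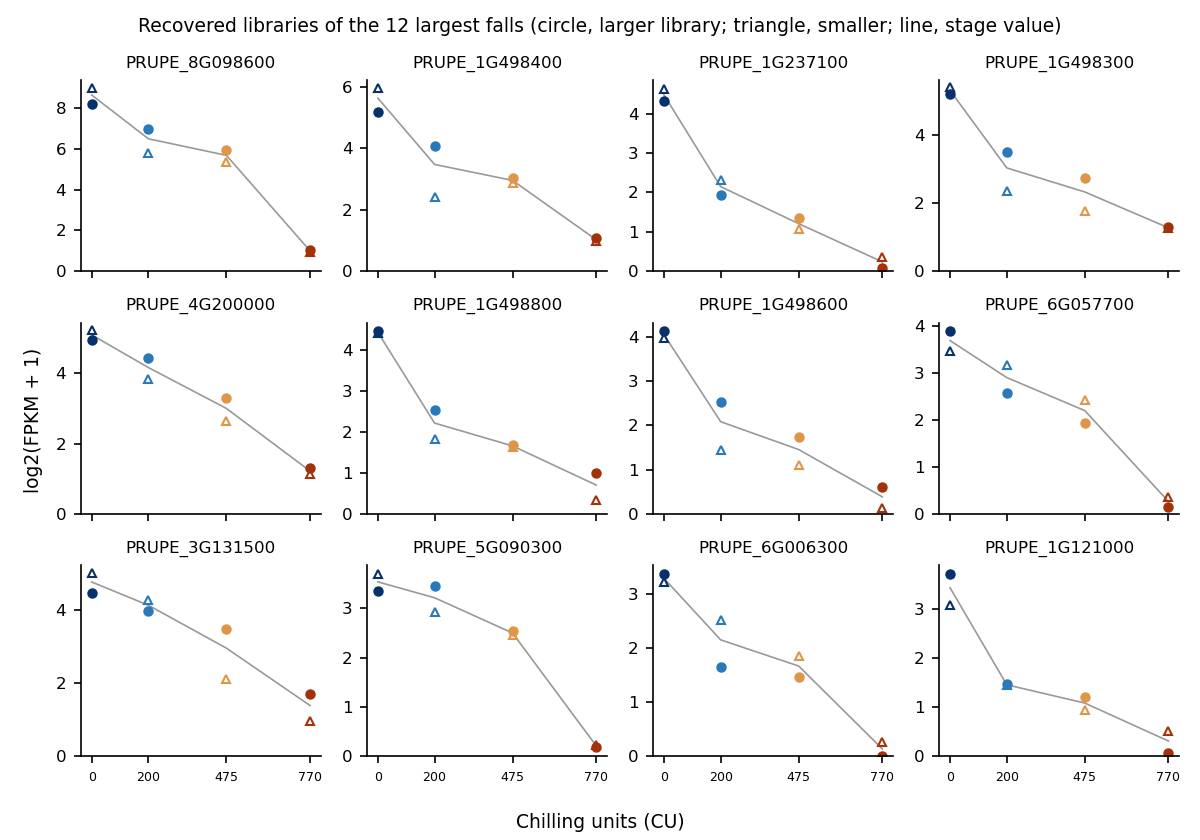
Recovered values of both libraries at each stage for 12 of the genes, 1 panel a gene, with log2(FPKM + 1) against chilling units. Filled circles mark the larger and open triangles the smaller library, and the line joins the stage values; in PRUPE_8G098600 the 0CU libraries hold 297 and 507 FPKM and the 770CU libraries 1.07 and 0.920 FPKM.

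PRUPE_6G057700, PRUPE_6G006300 and PRUPE_7G153300 began under 20 FPKM and ended under 1 FPKM. PRUPE_6G057700 held 13.8 and 10.0 FPKM at 0CU, 4.97 and 7.96 after 200CU, 2.81 and 4.35 after 475CU, and 0.112 and 0.286 by 770CU. PRUPE_6G006300 held 9.28 and 8.27 FPKM at 0CU, 2.16 and 4.73 after 200CU, 1.76 and 2.60 after 475CU, and 0 and 0.201 by 770CU. PRUPE_7G153300 held 16.6 and 15.3 FPKM at 0CU, 6.02 and 9.22 after 200CU, 3.19 and 4.94 after 475CU, and 0.486 and 1.42 by 770CU. In each the 770CU libraries were both below both of 475CU. In PRUPE_6G006300 the 2 middle stages overlapped, and its 770CU level rested on 8 fragments, all in the smaller library.

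The 2 most abundant genes were among those that fell least. PRUPE_8G030800 had the highest level of the set, with successive stage values of 2959, 1706, 1355 and 783 FPKM. PRUPE_6G002200 followed with 1311, 773, 598 and 371 FPKM. These 2 genes ended 3.78-fold and 3.53-fold lower, both among the 4 genes that changed less than 4-fold. They supplied most of the summed level of the set at every stage, and their library values were not recovered, so their falls carry no error here.

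PRUPE_4G226100 was abundant and differed little between libraries. Its libraries held 175 and 189 FPKM at 0CU, 134 and 148 after 200CU, 102 and 84.6 after 475CU, and 31.9 and 30.7 by 770CU. The fall was slow at first, and the last step held 61.8% of it. PRUPE_6G296100 differed most at the start, with 328 and 102 FPKM at 0CU, 75.8 and 135 after 200CU, 68.8 and 60.4 after 475CU, and 57.8 and 45.2 by 770CU. Its 0CU libraries differed 3.20-fold and overlapped those of 200CU. Its whole fall of -2.04 became -0.98 without the larger 0CU library and -2.65 without the smaller one, and without the larger library it no longer reached the limit of 1.5. What set these libraries apart was not tested. PRUPE_6G213600 held 92.7 and 93.1 FPKM at 0CU, 63.2 and 50.2 after 200CU, 56.0 and 30.8 after 475CU, and 18.6 and 15.1 by 770CU, with 200CU and 475CU overlapping.

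The steps were not equal in size, and they covered unequal amounts of chilling and time. The median step of the 42 genes was -0.80 over the first interval, -0.59 over the middle one and -1.0 over the last one. Over all 12883 genes the same medians were 0.0097, 0.0083 and -0.011. The typical gene of the table stayed level throughout, and the members stepped down unevenly. The steps spanned 200, 275 and 295CU, so the medians came to -0.40, -0.21 and -0.34 per 100CU. Per 10 days they came to -0.44, -0.34 and -0.36. The middle step was the smallest by these measures, and the last was the largest only before the division by chilling or time. This order depended on the scaling and on single libraries. With the stages scaled to the same summed FPKM the median steps were -0.56, -0.72 and -0.85, which made the first step the smallest. Without the larger 475CU library, among the recovered genes, the first step of -0.86 exceeded the last of -0.83. Among all 12883 genes 16.1%, 9.15% and 14.4% passed the limit of -0.3 at the successive steps, and nothing is read from these shares since the rule used the same steps.

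The largest step fell in the first interval for 17 genes, in the middle interval for 2 and in the last for 23. In 10 genes the first step held over 50% of the fall, with shares from 50.1% to 63.3%, and in 7 genes the last step did, with shares from 51.7% to 68.8%. No gene lost over 50% of its fall in the middle interval. These shares are on the log2(FPKM + 1) scale, which understates the last step of genes that ended near or under 1 FPKM. With 0.1 added in place of 1, the median last step went from -1.0 to -1.38 and the median first step from -0.80 to -0.86. PRUPE_1G237100, an early gene here, went from 21.3 to 3.43 FPKM in the first step. Its last step, from 1.31 to 0.177 FPKM, was the larger drop in proportion. The 10 early genes had a median fall of -2.93 and the 7 late genes one of -2.57. At 770CU the early genes stood at a median of 1.04 FPKM, a level at which the added 1 weighs heavily. The counts of early and late genes were not repeated with a smaller pseudocount, so they hold for the log2(FPKM + 1) scale only. In plain FPKM fewer genes may be early. Early genes outside the scaffold 1 run described below included PRUPE_1G121000, PRUPE_6G319600, PRUPE_2G223700 and PRUPE_7G159800.

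PRUPE_1G121000 had the highest early share on the log2(FPKM + 1) scale, 63.3%, with stage values of 9.83, 1.75, 1.12 and 0.243 FPKM. The last value rested on 8 fragments, and the whole fall of 40.5-fold had a counting interval from 20.5 to 93.7. That share is thus specific to the scale, as the last step of so low a gene is understated. It held 12.1 and 7.54 FPKM at 0CU, 1.77 and 1.73 after 200CU, 1.33 and 0.923 after 475CU, and 0.053 and 0.433 by 770CU. PRUPE_6G319600 held 118 and 82.3 FPKM at 0CU, 28.3 and 35.1 after 200CU, 24.98 and 22.99 after 475CU, and 13.9 and 14.2 by 770CU. PRUPE_2G223700 held 50.9 and 53.9 FPKM at 0CU, 19.2 and 16.5 after 200CU, 13.0 and 13.3 after 475CU, and 7.17 and 8.47 by 770CU. In all 3 the drop to 200CU was larger than the difference between the libraries of either stage, and no later stage overlapped the next. PRUPE_7G159800 held 136 and 124 FPKM at 0CU, 54.6 and 71.2 after 200CU, 50.1 and 50.04 after 475CU, and 41.1 and 34.3 by 770CU, and so kept the larger part of its 200CU level to the end.

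The late genes ran the other way. PRUPE_5G061800 held 67.9 and 61.0 FPKM at 0CU, 40.5 and 60.8 after 200CU, 36.9 and 28.6 after 475CU, and 15.3 and 15.95 by 770CU. The 200CU libraries stood apart, and the higher of them, at 60.8 FPKM, was nearly level with the lower 0CU library, at 61.0 FPKM. Libraries of different stages are not paired, so no difference in timing is read from this spread. PRUPE_6G084100 held 18.5 and 18.7 FPKM at 0CU, 11.0 and 12.1 after 200CU, 8.68 and 6.02 after 475CU, and 2.65 and 1.98 by 770CU, with 51.9% of its fall in the last step.

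The 2 genes whose middle step was the largest were PRUPE_1G409800 and PRUPE_4G066000. PRUPE_1G409800 held 29.3 and 33.3 FPKM at 0CU, 25.1 and 18.4 after 200CU, 9.32 and 10.1 after 475CU, and 5.13 and 5.86 by 770CU. Its middle step carried 46.9% of the fall, and that of PRUPE_4G066000 carried 41.1%. The most even division was that of PRUPE_4G030300, whose steps of -0.66, -0.55 and -0.54 differed by 0.12 at most. This gene held 12.1 and 15.5 FPKM at 0CU, 10.4 and 6.24 after 200CU, 5.88 and 4.89 after 475CU, and 2.83 and 3.94 by 770CU.

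**Figure D3:**
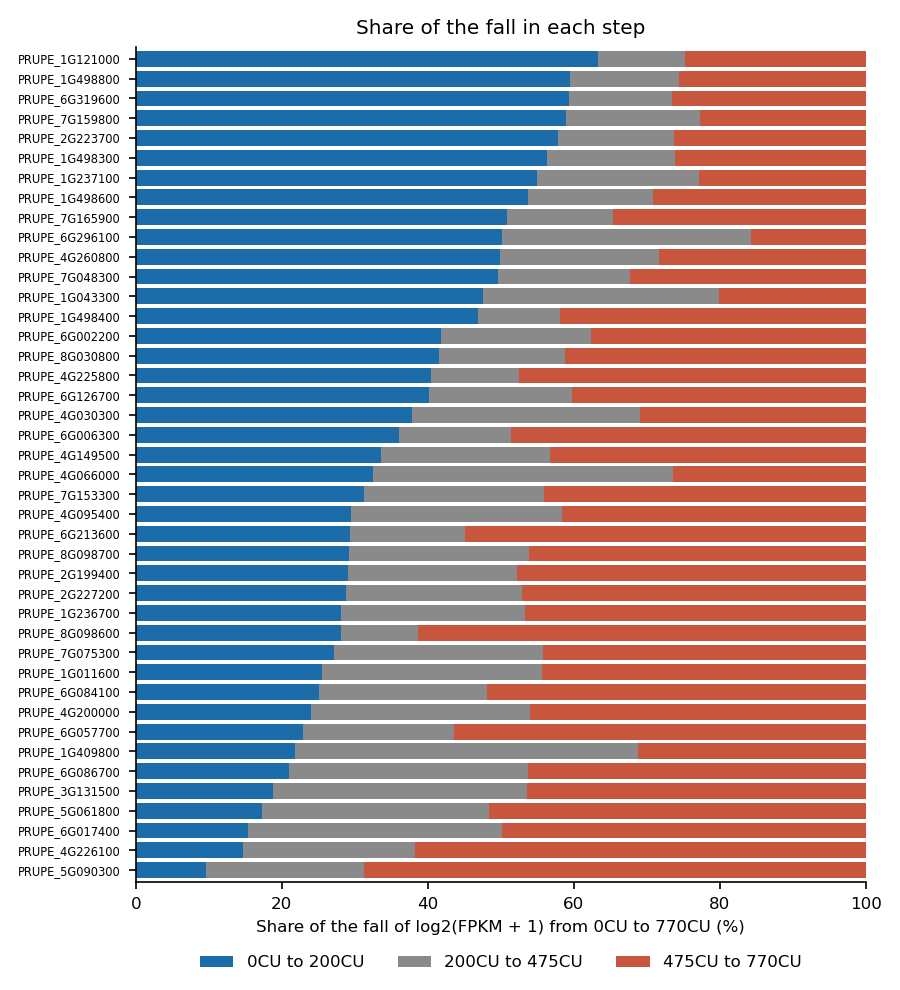
Share of each gene's fall in log2(FPKM + 1) that lay in each step, in percent, as stacked bars for the 42 genes ordered by the share of the first step. The first step held over 50% in 10 genes, the last in 7 and the middle in 0; the largest first-step share was 63.3% and the largest last-step share 68.8%.

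Several members lay beside one another. Taking genes on the same scaffold whose running numbers in the identifier differed by at most 1000, 10 of the 42 genes formed 4 groups. No such count over all genes or over the rising genes is set beside this one, so no clustering is read from it. The largest group was PRUPE_1G498300, PRUPE_1G498400, PRUPE_1G498600 and PRUPE_1G498800 on scaffold 1. Between and beside them stood PRUPE_1G498700 and PRUPE_1G498900, which were not members because their middle steps of -0.19 and -0.06 were too small. All 6 short genes of this run, 456 to 695 bases long, had a drop of more than 3 on the log2 scale over the whole period. They began between 15.6 and 59.8 FPKM and ended between 0.304 and 1.54 FPKM.

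In PRUPE_1G498300 the libraries held 35.8 and 41.5 FPKM at 0CU, 10.3 and 4.12 after 200CU, 5.61 and 2.43 after 475CU, and 1.45 and 1.39 by 770CU. PRUPE_1G498400 held 35.3 and 61.4 FPKM at 0CU, 15.8 and 4.32 after 200CU, 7.11 and 6.33 after 475CU, and 1.09 and 0.973 by 770CU. Its whole fall of -4.60 was the second largest of the 42 genes. PRUPE_1G498600 held 16.4 and 14.8 FPKM at 0CU, 4.75 and 1.72 after 200CU, 2.31 and 1.16 after 475CU, and 0.510 and 0.099 by 770CU. PRUPE_1G498800 held 21.1 and 20.2 FPKM at 0CU, 4.76 and 2.54 after 200CU, 2.23 and 2.08 after 475CU, and 0.983 and 0.269 by 770CU. In these 4 genes the first step was the largest on the log2(FPKM + 1) scale, and in the first 3 the libraries of 200CU and 475CU overlapped. By the stage values in plain FPKM, the last step was the larger drop in proportion in PRUPE_1G498400 and PRUPE_1G498600. PRUPE_1G498400 went from 48.4 to 10.1 FPKM in the first step and from 6.72 to 1.03 FPKM in the last. PRUPE_1G498600 went from 15.6 to 3.24 FPKM and from 1.74 to 0.304 FPKM.

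At 200CU the larger library was the higher in 6 of the 6 genes of the run, by 1.42-fold to 3.66-fold. The libraries did not share 1 direction at every stage, since at 0CU the larger library was the higher in PRUPE_1G498600 and PRUPE_1G498800 and the lower in the other genes. The 4 members all failed the rule when the larger 200CU library was left out, because the middle step then shrank. Directly before the run PRUPE_1G498200 was barely detected and also lower later, with 0.564, 0.111, 0 and 0.010 FPKM at the successive stages. Beyond these genes PRUPE_1G498100 had 2.38 FPKM at 0CU and 2.08 at 770CU, and PRUPE_1G499000 had 20.1 and 14.1 FPKM. Whether the 6 genes are close copies that share sequence reads is not known from the sources used here, and if they were, their values would not be separate measurements.

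PRUPE_8G098600 and PRUPE_8G098700 were next to each other on scaffold 8. PRUPE_8G098700 held 69.0 and 57.1 FPKM at 0CU, 31.4 and 34.8 after 200CU, 20.1 and 17.96 after 475CU, and 8.03 and 4.70 by 770CU, so its fall of -3.12 was smaller and more gradual than the -7.66 of its neighbour. The following gene, PRUPE_8G098800, had stage values of 62.3, 14.8, 23.7 and 2.72 FPKM. Its whole difference of -4.09 lay between those of PRUPE_1G237100 and PRUPE_1G498300, but it was 0.64 higher on the log2 scale at 475CU than at 200CU and so was not a member. On the other side, PRUPE_8G098500 had 30.9 FPKM at 0CU and 27.0 at 770CU, and PRUPE_8G098400 had 65.6 and 57.9 FPKM.

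The other neighbours formed pairs. PRUPE_1G236700 held 18.2 and 17.3 FPKM at 0CU, 7.77 and 14.1 after 200CU, 7.31 and 6.64 after 475CU, and 2.64 and 2.90 by 770CU, and lay close to PRUPE_1G237100. Between them PRUPE_1G236900 had 16.2 FPKM at 0CU and 12.5 at 770CU, so the pair was not an unbroken run. PRUPE_4G225800 held 10.2 and 11.3 FPKM at 0CU, 4.70 and 3.38 after 200CU, 2.97 and 2.87 after 475CU, and 0.435 and 0.456 by 770CU. Its partner PRUPE_4G226100 was far more abundant, and the genes between them were under 2 FPKM at all stages.

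**Figure D4:**
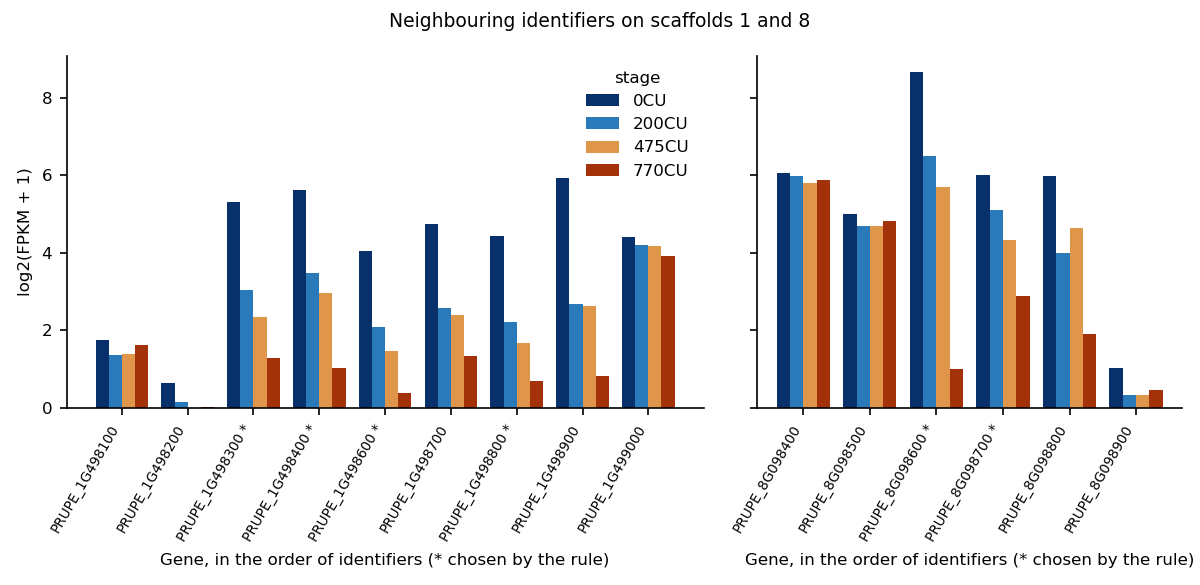
Level at each of the 4 stages as log2(FPKM + 1), in bars from 0, for genes in order of running number around the scaffold 1 run and around the scaffold 8 pair, with members marked by an asterisk. The genes from PRUPE_1G498300 to PRUPE_1G498900 end between 0.304 and 1.54 FPKM, while PRUPE_1G499000 goes from 20.1 to 14.1 FPKM.

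The 42 genes were spread over all 8 main scaffolds. Scaffolds 1 and 6 held 10 members each, out of 2891 and 1751 genes with at least 5 FPKM, and scaffold 4 held 8 of 1266. Scaffold 7 held 5 of 1375, and scaffolds 2 and 8 held 3 each, of 1488 and 1226. Scaffold 5 held 2 of 1228 and scaffold 3 held 1 of 1455. The shares ran from 0.0687% on scaffold 3 to 0.632% on scaffold 4, beside 0.326% over all genes. They rest on few genes, and 4 of the 10 scaffold 1 members belong to 1 run, so no unevenness is read from them.

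Length was not part of the rule. The recovered effective length, the length in bases that turns fragments into FPKM, had a median of 1346 over 40 members, with quartiles of 855 and 1885 and a range from 429 to 4020. Over the 12336 recovered genes with at least 5 FPKM the median was 2262. Lengths under 1000 bases were found in 12 of the 40 members (30%), beside 10.5% of all those genes. The 67 genes that rose under the same limits turned the other way resembled the falling genes in this, with a median of 1465 bases and 20 of 65 (30.8%) under 1000. Short genes collect fewer fragments at a given FPKM, and the 4 members of the scaffold 1 run account for 4 of the 12 short members.

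The separation of libraries was tallied for the 40 recovered genes. Both libraries of 770CU were below both libraries of 0CU in 40 of 40 genes, beside 37.7% of the 12336 genes. The first step separated the libraries in this way in 38 of 40 genes (30.2% of all genes), the middle step in 34 (25.7%) and the last in 40 (34.1%). At all 3 steps together 32 of 40 genes were ordered without overlap (2.17%), and the other 8 were ordered at 2 steps. The rule chose genes on the means of these libraries, so the shares are set side by side only as a description. The 8 genes with an overlap were PRUPE_5G090300 and PRUPE_6G296100 at the first step, and PRUPE_8G098600, PRUPE_1G498300, PRUPE_1G498400, PRUPE_1G498600, PRUPE_6G006300 and PRUPE_6G213600 at the middle step.

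The 2 libraries of a stage differed more in the members than over all genes, a trait shared with the genes that rose under the mirrored limits. The median absolute difference in log2(FPKM + 1) between the libraries of a stage was 0.21, 0.38, 0.26 and 0.19 in the members, in the order of the stages. Over the 12336 genes it was 0.13, 0.13, 0.08 and 0.09. In the 65 recovered rising genes it was 0.19, 0.25, 0.17 and 0.20. The spread pooled over stages was an SD of 0.31 in the members, 0.24 in the rising genes and 0.15 over all genes. The larger library was the higher in 17 of 40 members at 0CU (46.7% of all genes), in 18 after 200CU (51.5%) and in 23 by 770CU (54.1%). At 475CU the difference had a direction, since the larger library was the higher in 34 of 40 members (48.9%), by a median of 0.22. In the 67 rising genes the same library was the higher in 21 of 65, with a median of -0.10. The larger 475CU library thus stood nearer the levels of the earlier stages in both sets. The rising genes leaned at other stages as well. There the larger library was the higher in 24 of 65 at 0CU (median -0.07), 43 of 65 at 200CU (0.09) and 49 of 65 at 770CU (0.19). Whether the buds of the larger 475CU library differed in stage, tissue make-up or handling was not tested.

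**Figure D5:**
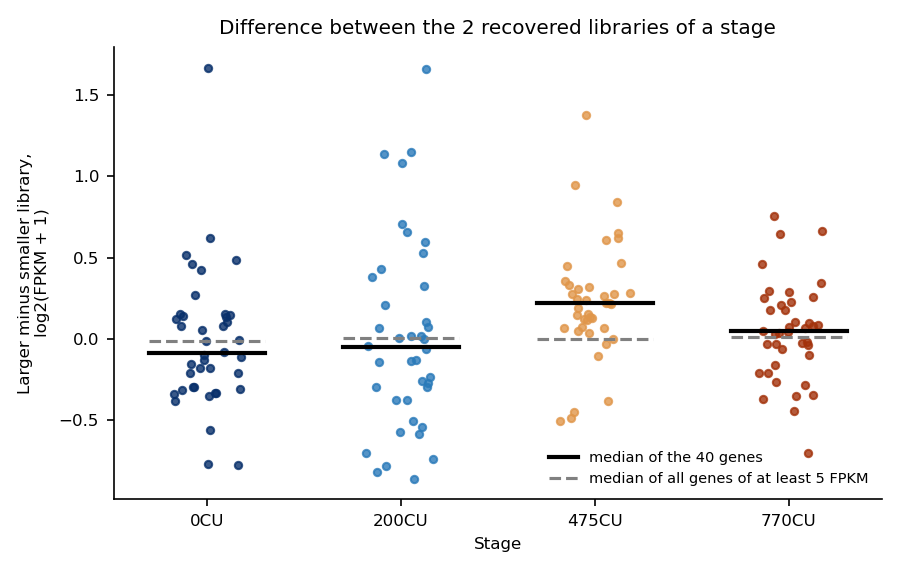
Difference in log2(FPKM + 1) between the larger and the smaller library of each stage, 1 point for each of the 40 recovered genes, with the median of these genes as a black line and that of all genes with at least 5 FPKM as a dashed line. At 475CU 34 of 40 points lie above 0 and the median is 0.22.

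A choice made on 1 library of each stage could be read in the other library, which the choice had not used, although both came from the same collection day. Applied to the larger library of each stage alone, with the level of 5 FPKM asked of those libraries, the rule gave 33 genes. Of these, 24 were among the 42. In the smaller libraries all 33 were lower at 770CU than at 0CU (50.1% of the 12336 genes with a stage value of at least 5 FPKM), 30 passed the limit of 1.5 (2.03%), 25 were lower at every step (9.23%) and 16 met the whole rule (0.43%). The sign of the whole fall carried over in these genes and the exact steps in fewer. Their median fall was -2.77 in the libraries that chose them and -2.91 in the others. In the opposite direction the smaller libraries gave 53 genes, of which 27 were among the 42. In the larger libraries 53 of the 53 were lower at 770CU (50.2%) and 42 passed the limit of 1.5 (1.52%). There 36 were lower at every step (8.54%) and 16 met the whole rule (0.259%). Their median fall was -2.44 where chosen and -2.13 where read. The middle step shrank most in this direction, from a median of -0.62 to one of -0.31, and the last grew from -0.94 to -1.13.

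Leaving out each of the 8 libraries in turn, 17 of the 40 genes met the rule every time, 15 in 7 of the 8, 4 in 6 and 4 in 5 or fewer. The least stable were PRUPE_6G296100 and PRUPE_4G260800, which met it in 4, and PRUPE_5G061800 and PRUPE_6G126700, which met it in 5. PRUPE_8G098600 failed only without the larger 200CU library, when its middle step shrank, and its place as the largest fall did not depend on that step.

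The members nearest to the limits show how the set was bounded. The smallest whole falls inside were those of PRUPE_4G260800 (-1.52) and PRUPE_6G086700 (-1.65), and just outside stood PRUPE_6G227800 (-1.4955) and PRUPE_7G268300 (-1.43). At the first step PRUPE_5G090300 (-0.32) and PRUPE_5G061800 (-0.34) were just inside, and PRUPE_3G165900 and PRUPE_3G168800 just outside at -0.28. The first step had close company on both sides of its limit, and so had the middle step. There PRUPE_7G165900 and PRUPE_7G159800 were inside at -0.32, and PRUPE_3G227800 and PRUPE_2G223500 outside at -0.29. At the last step PRUPE_6G296100 (-0.32) and PRUPE_7G159800 (-0.40) were inside, and PRUPE_1G448600 (-0.23) and PRUPE_1G529800 (-0.04) outside. The last step had a gap outside its limit, and the level of 5 FPKM had few genes near it. The lowest starting levels inside were 5.71 FPKM for PRUPE_6G126700 and 5.78 FPKM for PRUPE_1G043300, and the nearest outside were 4.77 FPKM for PRUPE_4G121100 and 4.03 FPKM for PRUPE_7G039200. The limit on the first step alone kept out 88 genes and that on the middle step 76, against 16 for the whole fall, 3 for the last step and 3 for the level of 5 FPKM. The set was thus bounded mainly by the first 2 steps.

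The remaining members covered moderate levels. PRUPE_7G048300, PRUPE_4G149500, PRUPE_2G199400 and PRUPE_6G017400 began at 21.0, 63.0, 33.9 and 29.8 FPKM and ended at 1.70, 7.75, 4.09 and 3.75 FPKM. PRUPE_1G011600, PRUPE_2G227200 and PRUPE_7G075300 began at 35.5, 10.03 and 10.3 FPKM and ended at 7.44, 1.45 and 1.998 FPKM. PRUPE_4G095400, PRUPE_4G066000 and PRUPE_4G260800 of scaffold 4 began at 9.82, 10.6 and 10.8 FPKM and ended at 2.25, 2.51 and 3.11 FPKM. In these 10 genes, as in all 40 recovered members, both 770CU libraries were below both 0CU libraries (37.7% of the 12336 genes). The limit on the whole fall favoured this. PRUPE_1G043300, PRUPE_6G086700, PRUPE_6G126700 and PRUPE_7G165900 began under 8 FPKM and ended at 0.130, 1.83, 1.04 and 0.663 FPKM, and of these PRUPE_1G043300 ended on 10 fragments.

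Features that the rule had set aside were read in the same way. Of the 6 gene models numbered from 1G531100 to 1G531700, 5 had at least 5 FPKM and 3 met every numerical limit. PRUPE_1G531700 did so from the highest level, with 818, 622, 328 and 80.1 FPKM at the successive stages. PRUPE_1G531400 had 68.5, 31.0, 16.1 and 7.01 FPKM and PRUPE_1G531100 had 6.81, 1.74, 0.860 and 0.455 FPKM. Their whole falls of -3.34, -3.12 and -2.42 lay within the range of the 42 genes.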

How the data were processed

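RNA from flower buds was depleted of ribosomal RNA and sequenced as paired-end reads of 150 nt. The submitters' notes name Trimmomatic 0.39, HISAT2 and featureCounts; the genome build and annotation behind the FPKM table are not given in the sources used here, as the study's methods name a P. persica genome from Ensembl for the ChIP-Seq reads only. The deposited table holds 1 FPKM column per stage, computed by the authors. Each value was written as the mean of 2 libraries with whole fragment numbers and 1 length per feature, with library sizes found from features of 1 fragment. For the 21712 features solved, the rebuilt means above 1 FPKM differed from the table by at most a relative error of 5.4e-10. The procedure was tested on simulated data. The study's methods describe replicates as separate groups of trees for 0CU, 475CU and 770CU, but the labels do not tie the libraries to these, so their spread may be technical.

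Differences are on the log2(FPKM + 1) scale (pseudocount 1), which understates changes of low genes. No test was run on the falls. Members and lists were chosen with earlier results of these data known. The planned pathway and marker lists could not be applied, as 0 identifiers matched the 26412 genes of the RefSeq table (Prunus_persica_NCBIv2). Genes were named by rule: the 10 largest falls, the 5 highest levels at 0CU, the largest fall at each step and the most even fall, members within 1000 of another in running number, those next to a limit, and the 3 with fewest ordered libraries. Others named were chosen after their values were seen. Alternatives were other pseudocounts, filters, limits and scalings, and leaving out each library. Python 3.11.15, numpy 2.4.6, pandas 2.3.3, scipy 1.17.1 and numba 0.67.0 were used.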

Additional observations from a re-analysis of the deposited data

How the results depend on the processing

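The rule gave 42 genes. It gave 23 with a highest value of at least 20 FPKM, 107 with each step only below 0, and 23 with each step at -0.5 or lower. With a pseudocount of 0.1 the median fall of the 42 genes was -2.96 and their median last step -1.38. Other pseudocounts, filters, scalings and limits on the whole fall gave from 31 to 58 genes. Scaling to the same summed FPKM of all features gave 34 genes, of which 26 were among the 42. It left 25 genes with ordered libraries at all steps in place of 32. With ENSRNA features left out of the sum there were 47 genes, of which 39 were among the 42. Leaving out 1 library at a time, among recovered genes, gave from 37 to 51 genes. The median fall then ran from -2.71 to -2.61, the first step from -0.99 to -0.81, the middle step from -0.69 to -0.49 and the last from -1.12 to -0.83. Of 264 alternative values for 20 named genes, 40 moved by more than the library SD and 0 changed sign. No paired analysis was possible because the table carries no replicate numbers. Depth limits the lowest values: 6 genes ended with 10 or fewer fragments at 770CU.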

Other observations

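Among features that are not PRUPE_ gene models, 2 XLOC_ features met every numerical limit. There were 1116 XLOC_ features, of which 256 had a highest value of at least 5 FPKM. The 0.326% of genes given above was likewise taken over those with at least 5 FPKM. XLOC_025918 had stage values of 1245, 834, 637 and 367 FPKM, and XLOC_012406 had 8.61, 5.74, 3.56 and 1.95 FPKM. Of the 330 ENSRNA features 268 had at least 5 FPKM and 1 met the limits, ENSRNA049996971, with 6.45, 4.89, 2.30 and 1.62 FPKM. Their whole falls were -1.76, -1.70 and -1.51, all near the limit of 1.5.

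Under the same limits in the opposite direction 67 genes rose at every step, with a median of 2.21 FPKM at 0CU and 18.8 FPKM at 770CU and a median whole rise of 2.38 on the log2 scale. These genes were chosen on the same values, so their number is given without a test. Over all 12883 genes 10.8% were lower at each of the 3 steps and 11.5% were higher at each.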
